A study of Homo sapiens with 24 samples.

Results

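Proteoglycans are core proteins that carry sulfated sugar chains, and CD44 is the surface receptor for hyaluronan, the large unsulfated sugar polymer to which many of them bind. The genes described here are DCN (decorin), LUM (lumican), BGN (biglycan), the syndecans SDC1, SDC2 and SDC4, the glypicans GPC1 and GPC4, HSPG2 (perlecan) and CD44: 10 of the 30982 gene names on the array, with 12 probes. They are all gene spots that the array design names for these genes. The set was chosen by the measured rise of DCN when Si306 was added to 10 Gy of protons, so the values of these genes in that comparison are a description, without a test.

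RNA of U87 MG cells, an established human glioblastoma line, was measured on 2-colour arrays 24 h after proton irradiation (PT). In 2 configurations, named 2 Gy and 10 Gy below, cells given that dose of protons were compared with untreated cells. In the other 2, named Si306 + 2 Gy and Si306 + 10 Gy, cells were pretreated with 10 µM of the SRC inhibitor Si306 and then irradiated. They were compared with cells given the same dose of protons alone. The treated RNA was in Cy5 (red) and the control RNA in Cy3 (green) on every array, so that an effect of dye and an effect of treatment cannot be told apart. The 24 samples were 8 arrays scanned 3 times each, which leaves 2 arrays for each configuration, and 2 scans whose label disagreed with their array were left out. Values are log2 ratios of Cy5 to Cy3 after normalization, in which 1 is a doubling. Tests are those of limma over all genes, with Benjamini-Hochberg adjustment. Nothing in the sources ties the arrays to separate cultures, and the p-values then measure only the spread between these arrays, which may be technical.

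In tissue, decorin, lumican and biglycan are small leucine-rich proteoglycans of the matrix, which bind collagen fibrils, and decorin also holds TGF-β and damps receptor tyrosine kinases. Syndecans span the cell membrane and glypicans are held to it by a lipid anchor, and both carry heparan sulfate chains that act as co-receptors for growth factors. Perlecan is the large heparan sulfate proteoglycan of basement membranes, and CD44 is abundant on glioma cells of the mesenchymal kind.

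Each value below is the signal of a 60-base probe. The probes of DCN and HSPG2 and the dimmer probes of SDC1 and SDC4 are printed because the largest change, a measurement near background and the disagreements between probes of 1 gene rest on them. All lie on the minus strand in the array's annotation (hg17), and the capitals in the DCN probe mark the TAA triplet next to its 3′ end.
DCN: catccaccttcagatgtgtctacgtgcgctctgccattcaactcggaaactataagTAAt
SDC1: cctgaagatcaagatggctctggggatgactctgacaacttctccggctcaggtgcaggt
SDC4: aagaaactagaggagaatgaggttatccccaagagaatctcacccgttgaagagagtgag
HSPG2: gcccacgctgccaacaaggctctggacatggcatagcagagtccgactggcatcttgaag

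The DCN probe lies at chr12:90042302-90042361 and the LUM probe at chr12:90000114-90000173, on the same strand of the same chromosome. The printed SDC1 probe, A_24_P97129, spans 1111 bases at chr2:20325679-20326789, and so crosses an intron, while the brighter SDC1 probe, A_23_P16944, lies at chr2:20322963-20323022. The printed SDC4 probe, A_24_P373976, lies at chr20:43392496-43392555 and the brighter A_23_P109034 at chr20:43387992-43388051. The HSPG2 probe spans 170 bases at chr1:21899677-21899846 and so also crosses an intron. The other probes lie at chrX:152294780-152294839 (BGN, plus strand), chr2:241127108-241127167 (GPC1, plus strand), chrX:132160949-132161008 (GPC4, minus strand) and chr11:35207510-35207569 (CD44, plus strand), and the SDC2 probe spans 5866 bases of the plus strand of chromosome 8. The GC content of the 12 probes ran from 35% (LUM) to 60% (BGN).

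The slides stood apart, and this touches 7 of the 10 members. The 2 Gy and 10 Gy arrays were on 1 slide and all Si306 arrays on the other, and cells given protons alone were measured on both, in Cy5 on the first and in Cy3 on the second. Over all genes the normalized levels of these cells differed between the slides with an SD of 1.24 on the log2 scale at either dose, and 27.7% of genes at 2 Gy and 28% at 10 Gy differed at least 2-fold. Untreated cells on the first slide, compared between the arrays of the 2 doses, differed with an SD of 0.121. In cells given 2 Gy alone, the second slide minus the first was -3.44 for GPC1, -2.53 for SDC2, -2.35 for CD44, -2.27 for LUM, -1.57 for SDC4, 1.34 for SDC1 and 1.09 for DCN. In cells given 10 Gy alone the same 7 differences were -3.32, -2.51, -2.35, -2.57, -1.27, 0.93 and 1.18. GPC1, SDC2, CD44, LUM and SDC4 were thus lower on the second slide at both doses, and DCN and the brighter SDC1 probe higher. The dimmer SDC1 probe went the other way, at -0.51 and -0.93. For BGN, GPC4 and HSPG2 the differences lay between -0.21 and 0.16. The channels of an array differed less: within the arrays the log2 ratios of all genes had an SD of 0.26 to 0.30. GPC1, given here for the size of its difference, had mean levels of 12.94 in Cy3 and 13.37 in Cy5 on the 2 Gy arrays and of 9.94 and 9.48 on the Si306 + 2 Gy arrays, and the part of the dye in the slide differences was not tested. Whether the same RNA was put on both slides is not given in the sources used here, and a difference of slide and one of RNA cannot be told apart. The results for the members are therefore log2 ratios within an array, and levels are set across the slides only for the checks of the labels and in the separate-channel model.

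**Figure D1:**
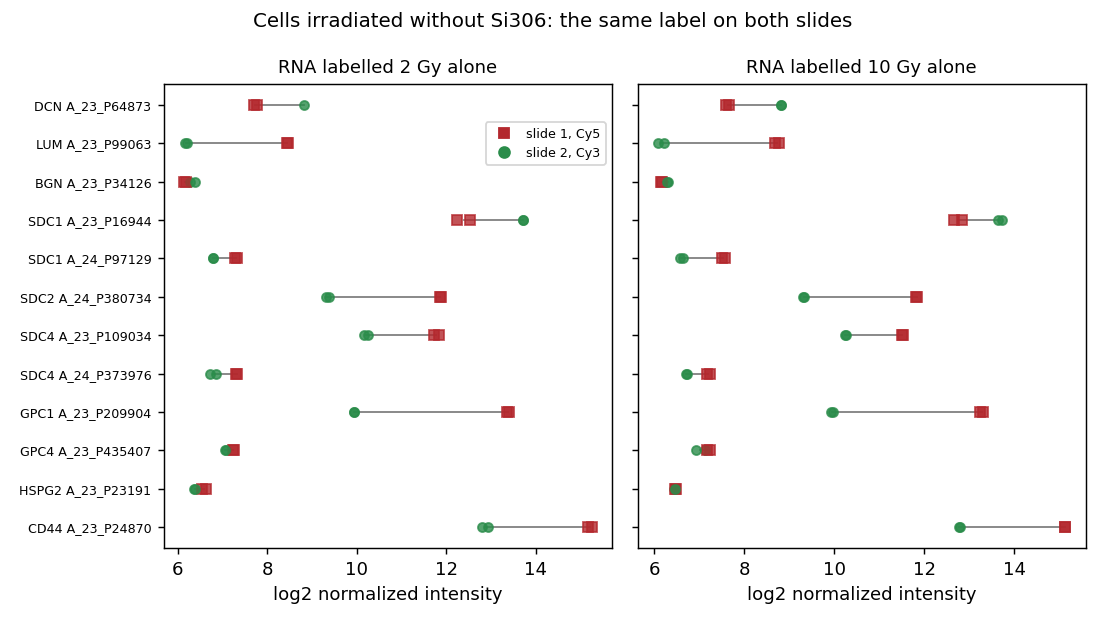
Normalized log2 intensity of each of the 12 probes in the cells labelled 2 Gy alone (left) and 10 Gy alone (right), in Cy5 on slide 1 (red squares) and in Cy3 on slide 2 (green circles). Points are arrays and the grey line joins the means of the slides. GPC1 differs most, by -3.44 and -3.32 (slide 2 minus slide 1), and GPC4 by -0.18 and -0.19.

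The labelled cell type was checked on its markers. VIM, FN1, CD44 and S100A4, which mesenchymal glioma lines express, were well above background on all 8 arrays, but CHI3L1 only on the 4 arrays of the first slide. S100A4 in cells given protons alone was 8.14 (2 Gy) and 8.19 (10 Gy) higher on the second slide on the log2 scale. Of the glial markers, GFAP was above background on all 8 arrays, OLIG2 on 3 in Cy3 and 4 in Cy5, and S100B on 1, in Cy5 only. MTAP, in the region deleted in U87 MG, was not well above background on any array. CDKN2A of the same region was above it on 7 of 8, and had no value on the first 2 Gy array. CDKN2B, also of that region, was above it on 3 arrays in Cy3 and 4 in Cy5. The summed level of 9 stromal fibroblast and endothelial markers in Cy3 was 13922 to 14413 on the first slide and 3589 to 3992 on the second, with 4 of them (THY1, COL1A1, COL1A2 and FAP) above background on all 8 arrays in Cy3 and CDH5 on none. These markers did not move together. In cells given 2 Gy alone COL1A2 (-3.50), FAP (-3.10), COL1A1 (-2.27) and THY1 (-1.80) were lower on the second slide, whereas COL3A1 (3.36), PECAM1 (3.02) and PDGFRA (2.08) were higher. Some markers also differed within the Si306 arrays. Of 8 tested genes of the U87 MG list 1 was higher and 1 lower in Si306 + 2 Gy, and 2 and 2 in Si306 + 10 Gy. These are 25% and 50%, fewer than the 66.6% and 62.5% of all genes. CDKN2A was among them, at 0.82 (adjusted p = 5.23e-08) and 0.73 (adjusted p = 1.44e-07). Of the 9 stromal markers 5 were higher and 3 lower in Si306 + 2 Gy (88.9%, against 66.6% of all genes), and 4 and 2 in Si306 + 10 Gy (66.7%, against 62.5%). Among those called COL3A1 was the highest, at 1.23 and 1.08. PDGFRA was the lowest, at -0.60 (adjusted p = 1.64e-06) and, on 1 array, -0.71, values whose sign the separate-channel model, described below, turned. The CDKN2A signal goes against the label, and the cells on the slides may differ. They are called U87 MG here as labelled, and the part of these differences in the results below, those with Si306 above all, was not tested.

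Of the 10 genes, 9 passed the filter on dim probes, with 11 of the 12 probes. BGN was not well above background in either channel on any array, and no direction is drawn for it. In 2 Gy, 4 of the 9 genes rose, 1 fell and 4 did not pass the test. The background in that comparison was 57.2% of 22818 genes called, with 32.2% higher and 25% lower, so the 55.6% of the members was near it. In 10 Gy, 5 rose and 2 fell, which is 77.8% against 57.6% of all genes (31.2% higher and 26.4% lower). In Si306 + 2 Gy, LUM was not well above background in either channel, and of the other 8 genes 4 rose and 3 fell, which is 87.5% against 66.6% of all genes (38.6% higher and 27.9% lower). The values of all genes there were not limited in that way to genes above background. With LUM counted, 5 rose and 3 fell (88.9%, median 0.14). The median log2 ratios of these 9, 9 and 8 genes were 0.06, 0.23 and 0.11, beside 0.02, 0.02 and 0.04 for all genes.

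The splits into higher and lower moved with the dye normalization. With median centring in place of loess they were 7 higher and 1 lower in 2 Gy, 8 and 1 in 10 Gy, and 7 and 2 in Si306 + 2 Gy, where LUM is counted here. That setting also moved the median of all genes to 0.27, 0.23, 0.44 and 0.26 in the 4 configurations in the order 2 Gy, 10 Gy, Si306 + 2 Gy and Si306 + 10 Gy, and values under it are given below less that median. With the scanner software's own ratios the split in Si306 + 2 Gy was 3 and 3, against 5 and 3 with LUM counted. A separate-channel model with a dye term, which compares levels across the slides, gave 2 higher and 6 lower, 2 and 7, and 2 and 5. Among the called values it turned the sign of LUM, SDC4 and GPC1 in 2 Gy and 10 Gy and of LUM, SDC1, SDC2, GPC4 and CD44 in Si306 + 2 Gy, so that the directions given for them below hold at most under the within-array settings. Among the values that had not passed it turned those of GPC4 and HSPG2 in 2 Gy and 10 Gy, of HSPG2 in Si306 + 2 Gy and of SDC1 in 2 Gy, which went from -0.04 to 1.12.

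**Figure D2:**
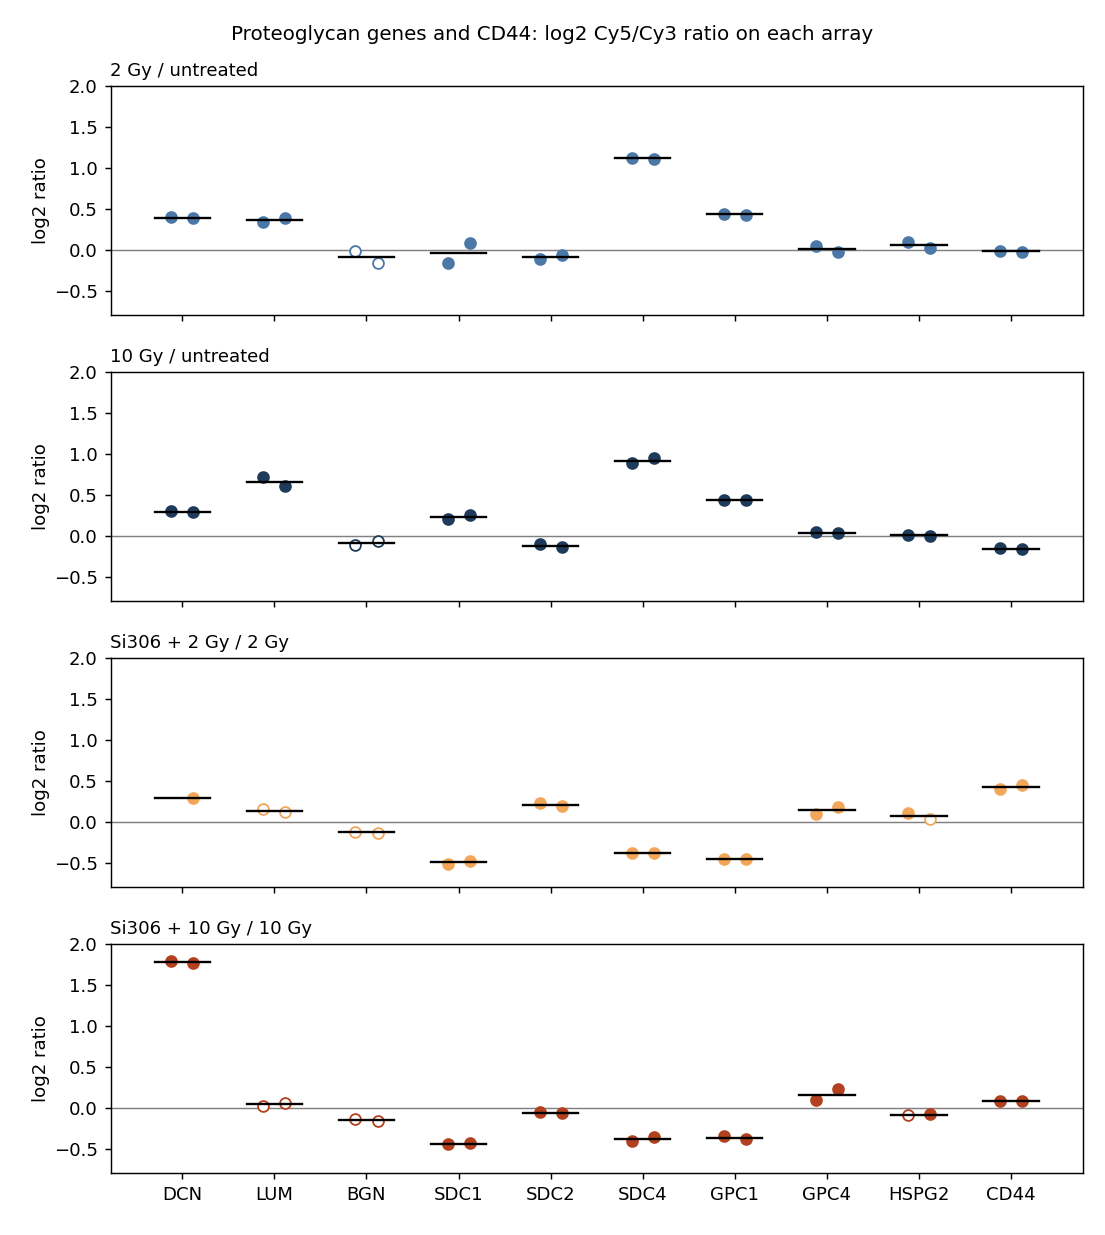
Log2 ratio of Cy5 to Cy3 for each gene's brightest probe on each array (points) in the 4 configurations, with the mean as a black line. Open points are arrays on which neither channel was well above background, as for BGN everywhere and LUM on the Si306 arrays. DCN stands at 1.79 in Si306 + 10 Gy and SDC4 at 1.12 in 2 Gy. The directions of LUM, SDC1, SDC2, SDC4, GPC1, GPC4, HSPG2 and CD44 each turn in at least 1 configuration under at least 1 other scaling.

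DCN, whose product binds collagen and TGF-β, was higher in the treated RNA of all 4 configurations. Its log2 ratios were 0.40 and 0.40 on the 2 arrays of 2 Gy and 0.30 and 0.29 on those of 10 Gy. The arrays of a dose lay closer to each other than the doses did, and all were above 0. The rise was 0.40 (SE 0.03, adjusted p = 3.39e-06) at 2 Gy and 0.30 (SE 0.03, adjusted p = 2.23e-05) at 10 Gy. The size moved with the processing, to 0.61 and 0.41 with the scanner software's ratios, 0.59 and 0.48 with median centring (0.32 and 0.25 less the median) and 1.47 and 1.39 with the separate-channel model. The difference between the doses, -0.10 (SE 0.04), did not pass the test (adjusted p = 0.159), but it did with the scanner software's ratios, at -0.20 (adjusted p = 0.0418).

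When Si306 was added to 2 Gy, DCN was measured on 1 array only, at 0.29 (SE 0.04, adjusted p = 2.70e-04), because the local background around its spot was marked as an outlier in all 3 scans of the other array. The spot itself was not marked, and the test assumes that the lone array varies like the others. With such spots kept, a setting added after the data were seen, the value over both arrays was 0.31 (SE 0.03, adjusted p = 7.03e-06). With median centring it was 0.46 above the median of all genes, and with the separate-channel model it was 1.36.

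When Si306 was added to 10 Gy, DCN stood at 1.79 and 1.78 on the 2 arrays. This mean of 1.79 was the 13th highest of 22832 genes, and 66 genes (0.289%) were called at least 2-fold higher there. On the second slide, the normalized log2 level of DCN was 8.83 in cells given 2 Gy alone and 8.82 in cells given 10 Gy alone, and it was 9.12 and 10.60 with Si306. The levels at 2 Gy are those of 1 array. The 10 Gy contrast chose the gene, and the difference between the doses of Si306 was not tested for that reason. The size of the value moved with the processing, from 1.76 after removal of a curve on probe GC content to 2.03 with the scanner software's ratios and 2.88 with the separate-channel model, and no setting turned its sign.

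**Figure D3:**
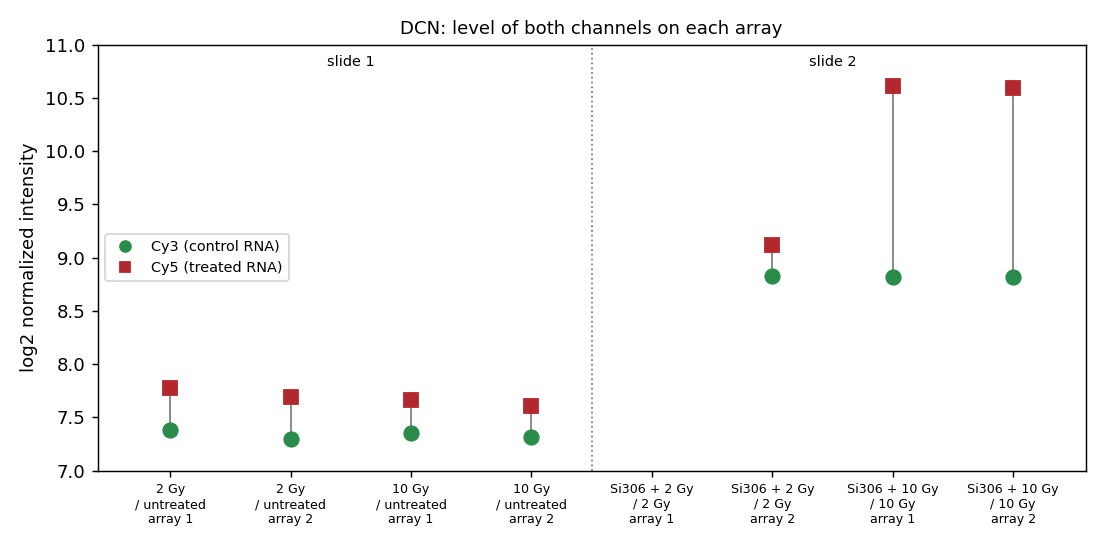
Normalized log2 intensity of the DCN probe in Cy3 (control RNA, green circles) and Cy5 (treated RNA, red squares) on each array, with the ratio as the grey line. Array 1 of Si306 + 2 Gy has no value because of its marked local background. Cy5 is above Cy3 on all 7 arrays with a value, and Cy5 reaches 10.60 in Si306 + 10 Gy.

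LUM, a collagen-binding relative of DCN, was higher after protons, and its calls depended on the processing. Its log2 ratios were 0.34 and 0.38 in 2 Gy and 0.72 and 0.61 in 10 Gy, without overlap between the doses. The rise was 0.36 (adjusted p = 9.21e-06) at 2 Gy and 0.66 (adjusted p = 8.45e-08) at 10 Gy, and the difference of 0.30 (SE 0.05) passed the test (adjusted p = 2.43e-03). With the scanner software's ratios the values were alike, at 0.40, 0.71 and a difference of 0.30, but none passed (adjusted p = 0.206, 0.0510 and 0.598). With all scans as labelled and the array as a random block both rises passed, and the difference, 0.08, did not (adjusted p = 0.621). On the Si306 arrays neither channel was well above background. The ratios there, 0.16 and 0.12 at 2 Gy and 0.02 and 0.07 at 10 Gy, have no direction, although the first mean passed the test (0.14, adjusted p = 6.16e-03).

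Among the syndecans, SDC4, which joins integrins at focal adhesions, had the highest ratio of all members in the proton configurations. Its brighter probe gave 1.13 and 1.12 in 2 Gy and 0.89 and 0.96 in 10 Gy. Every array was far above 0, and the arrays of the doses did not overlap. The mean was 1.12 (SE 0.03, adjusted p = 1.10e-09) at 2 Gy and 0.92 (SE 0.03, adjusted p = 3.40e-09) at 10 Gy, a difference of -0.20 (adjusted p = 0.0116). Without the first array of 10 Gy the difference was -0.17 and did not pass (adjusted p = 0.0813). At 2 Gy, 156 genes (0.684%) rose at least 2-fold, and SDC4 was the only member among them.

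With Si306 the same probe was lower in the treated RNA, at -0.38 and -0.38 in Si306 + 2 Gy (mean -0.38, adjusted p = 2.32e-06; -0.02 less the median with median centring) and at -0.41 and -0.35 in Si306 + 10 Gy. The other SDC4 probe, printed above, showed none of this. It was well above background in both channels on all 8 arrays and gave 0.08 (adjusted p = 0.102) in 2 Gy, -0.02 (adjusted p = 0.652) in 10 Gy, 0.01 (adjusted p = 0.894) in Si306 + 2 Gy and 0.01 in Si306 + 10 Gy. The probes of SDC4 therefore gave different values in each configuration, a difference that was not itself tested, and a direction for the gene rests on the brighter probe.

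SDC1, a syndecan that is shed from the surface of many epithelial and plasma cells, also had probes that differed. Its brighter probe gave -0.17 and 0.08 in 2 Gy, on either side of 0, and 0.21 and 0.26 in 10 Gy. The mean was -0.04 (SE 0.05, adjusted p = 0.495) at 2 Gy and 0.23 (adjusted p = 2.08e-03) at 10 Gy, and the difference of 0.27 (SE 0.07) passed the test (adjusted p = 0.0186). All 3 values depend on single arrays. Without the second 2 Gy array SDC1 was -0.17 and passed (adjusted p = 0.0110), and without the second 10 Gy array it was 0.21 and did not (adjusted p = 0.0554). The difference ran from 0.15 to 0.40 with 1 array left out, and it did not pass without the first 2 Gy array (adjusted p = 0.0948), the first 10 Gy array (adjusted p = 0.0738) or the second (adjusted p = 0.128), nor with the scanner software's ratios (0.24, adjusted p = 0.174). The dimmer probe, which crosses an intron, rose at both doses, by 0.51 (SE 0.04, adjusted p = 7.55e-07) and 0.66 (adjusted p = 8.87e-08), and its dose difference of 0.15 did not pass (adjusted p = 0.0763).

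With Si306 at 2 Gy, both SDC1 probes were lower in the treated RNA. The brighter gave -0.51 and -0.48 (mean -0.50, adjusted p = 6.32e-06) and the dimmer had a mean of -0.35 (adjusted p = 1.20e-05). With median centring the brighter probe was 0.21 above the median of all genes instead, so that its direction depends on the normalization. In Si306 + 10 Gy the brighter probe stood at -0.44 and -0.43 and the dimmer had a mean of -0.13, and with median centring the brighter was 0.04 above the median.

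**Figure D4:**
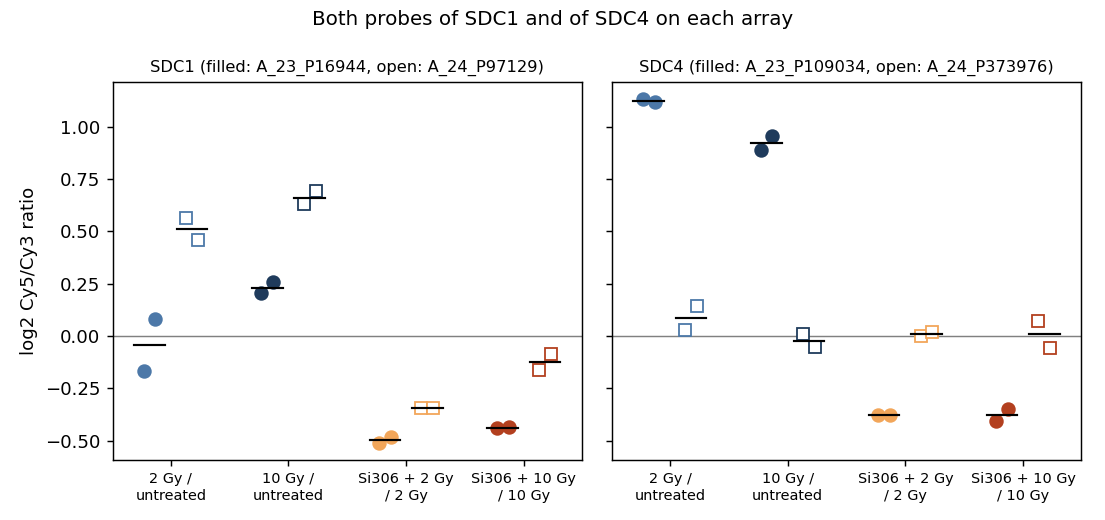
Log2 ratios of the brighter probe (filled circles) and the dimmer probe (open squares) of SDC1 (left) and SDC4 (right) on each array, with means as black lines. The SDC4 probes stand at 1.12 and 0.08 in 2 Gy, and the SDC1 probes at -0.04 and 0.51. The SDC1 and SDC4 values below 0 with Si306 are those of loess; with median centring, less the median of all genes, the brighter SDC1 probe is at 0.21 and the brighter SDC4 probe at -0.02 in Si306 + 2 Gy.

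SDC2, a syndecan of mesenchymal and neural cells, moved little. Its log2 ratios were -0.11 and -0.06 in 2 Gy, -0.10 and -0.14 in 10 Gy, 0.23 and 0.20 in Si306 + 2 Gy, and -0.05 and -0.06 in Si306 + 10 Gy. The 2 arrays of each configuration lay on the same side of 0, and the ratios of Si306 + 2 Gy were the only ones above it. The means were -0.09 (adjusted p = 0.0393), -0.12 (adjusted p = 7.17e-03) and 0.21 (adjusted p = 1.50e-04) in the first 3, and the dose difference of -0.04 did not pass (adjusted p = 0.634). The call at 2 Gy was lost without its first array (adjusted p = 0.298) or its second (adjusted p = 0.0548), and that at 10 Gy without its second (adjusted p = 0.0907). With median centring the first 2 turned to 0.27 and 0.16 above the median, and only the rise with Si306 at 2 Gy (0.50) kept its direction among the within-array settings.

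GPC1, a lipid-anchored heparan sulfate proteoglycan and co-receptor for fibroblast growth factors, gave nearly the same value on both arrays of each configuration. Its log2 ratios were 0.44 and 0.43 in 2 Gy and 0.43 and 0.44 in 10 Gy, the same at both doses within their spread. The means were 0.43 (SE 0.03, adjusted p = 6.51e-07) and 0.44 (adjusted p = 4.84e-07), and their difference was 0.00 (adjusted p = 0.979). With Si306 the ratios were -0.45 and -0.45 at 2 Gy (mean -0.45, adjusted p = 3.27e-07) and -0.35 and -0.38 at 10 Gy. With median centring the GPC1 values with Si306 were -0.13 and -0.11 less the median, lower as well, although the ratio itself turned to 0.31 at 2 Gy.

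GPC4, the other glypican, gave 0.05 and -0.02 in 2 Gy, 0.05 and 0.03 in 10 Gy, 0.10 and 0.18 in Si306 + 2 Gy, and 0.10 and 0.23 in Si306 + 10 Gy. Neither proton mean passed the test, at 0.01 (adjusted p = 0.800) and 0.04 (adjusted p = 0.433). The mean with Si306 at 2 Gy, 0.14 (adjusted p = 9.02e-03), did, but it did not with the scanner software's ratios (0.19, adjusted p = 0.209) or without its second array (0.10, adjusted p = 0.162), and it was -0.24 less the median with median centring. HSPG2 was dim, with Cy3 not well above background on any Si306 array and on 1 of 2 arrays of each proton dose. Its means of 0.06 (adjusted p = 0.147), 0.01 (adjusted p = 0.881) and 0.07 (adjusted p = 0.0872) did not pass the test, and its mean in Si306 + 10 Gy was -0.08.

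CD44, the hyaluronan receptor, was measured by 1 probe at 10 spots. Its log2 ratios were -0.01 and -0.03 in 2 Gy, -0.15 and -0.16 in 10 Gy, 0.41 and 0.45 in Si306 + 2 Gy, and 0.09 and 0.08 in Si306 + 10 Gy. The arrays of each configuration lay close to each other, and no 2 configurations overlapped. The mean at 2 Gy, -0.02, did not pass the test (adjusted p = 0.618), the fall at 10 Gy did (-0.15, adjusted p = 1.25e-03) and the dose difference of -0.14 (SE 0.04) passed narrowly (adjusted p = 0.0485), and not in the fit over probes (adjusted p = 0.0543), with the scanner software's ratios (adjusted p = 0.0515), with the GC curve removed (adjusted p = 0.0681), with no filter on dim probes (adjusted p = 0.0963) or without any 1 of the 8 arrays (adjusted p = 0.0613 to 0.143). With median centring CD44 was 0.44 and 0.23 above the median in the proton configurations, so that the direction of the fall depends on the normalization. The rise with Si306 at 2 Gy was 0.43 (adjusted p = 5.28e-07), and 1.09 above the median with median centring.

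Between the proton doses, 4 of the 9 genes differed, LUM and SDC1 higher and SDC4 and CD44 lower at 10 Gy, against 21.1% of all genes (9.92% higher and 11.2% lower). Both doses share the untreated cells as control. Without the first array of 10 Gy 1 gene was called, and without the first array of 2 Gy or the second of 10 Gy 2 were. With the scanner software's ratios the split was 0 higher and 2 lower (DCN and SDC4), with median centring it was 1 and 2, and with all scans as labelled and the array as a random block no gene was called. Cells labelled 2 Gy alone are the treated RNA of 2 Gy and the control of Si306 + 2 Gy, on slides where their levels differed as given above, and no count of like or opposite directions is drawn between these configurations.

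The genes around these proteins were taken from lists of their known roles. Of 148 such genes, 147 were on the array and 130 were tested. In 2 Gy, 59 of them were higher and 27 lower (66.2%, against 57.2% of all genes), and in 10 Gy 58 were higher and 27 lower (65.4%, against 57.6%). In Si306 + 2 Gy, 41 were higher and 36 lower (59.2%, against 66.6%), and in Si306 + 10 Gy 50 were higher and 36 lower (66.2%, against 62.5%). Their medians were 0.08, 0.07, 0.01 and 0.02. The splits moved with the scaling. With median centring those with Si306 became 82 higher and 39 lower at 2 Gy and 78 and 30 at 10 Gy, and with the GC curve removed 34 and 43 and 40 and 40. The separate-channel model turned all 4, to 46 higher and 63 lower in 2 Gy, 44 and 67 in 10 Gy, 42 and 70 in Si306 + 2 Gy and 42 and 69 in Si306 + 10 Gy.

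Of 12 tested genes that break down these sugar chains in lysosomes, 9 rose and 1 fell in 2 Gy, with a median of 0.20, where 32.2% of all genes rose, and 6 rose and 1 fell in 10 Gy, where 31.2% did. With Si306, 4 rose and 4 fell at 2 Gy (66.7%, against 66.6% of all genes, median -0.02), and 4 rose and 5 fell at 10 Gy (75%, against 62.5%, median -0.04). Among 12 genes that make, bind or cut hyaluronan, the ligand of CD44, 5 rose and 1 fell in 2 Gy (50%, against 57.2% of all genes) and 4 rose and 1 fell in 10 Gy (41.7%, against 57.6%). HAS1, a hyaluronan synthase, had the highest ratio in both, at 1.16 (SE 0.05, adjusted p = 1.06e-08) and 0.92 (adjusted p = 4.07e-08), and HYAL3, of the hyaluronidase family, the lowest, at -0.20 (adjusted p = 5.89e-04) and -0.21 (adjusted p = 3.06e-04). With Si306, 2 of the 12 rose and 4 fell at 2 Gy (50%, against 66.6%), and 5 rose and 3 fell at 10 Gy (66.7%, against 62.5%). HYAL3 was then the highest, at 0.30 (adjusted p = 2.04e-05) and 0.46 (adjusted p = 1.03e-06), and HMMR, another hyaluronan receptor that also acts at the spindle, the lowest, at -0.49 (adjusted p = 4.58e-07) and -0.24 (adjusted p = 1.08e-04). With median centring HMMR was -0.04 and 0.08 less the median in these, and HAS1 was not well above background on the Si306 arrays.

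Among 13 tested ligands and receptors of decorin, 5 rose and 3 fell in 2 Gy, 8 rose and 3 fell in 10 Gy, 4 rose and 4 fell in Si306 + 2 Gy, and 8 rose and 2 fell in Si306 + 10 Gy. These are 61.5%, 84.6%, 61.5% and 76.9% of the list, against 57.2%, 57.6%, 66.6% and 62.5% of all genes. COL1A1, a chain of type I collagen, was the highest at 2 Gy (0.80, adjusted p = 7.92e-09) and MET, a receptor tyrosine kinase that decorin binds, at 10 Gy (0.61, adjusted p = 4.14e-08). FN1 (fibronectin) was the lowest in both, at -0.34 (adjusted p = 5.75e-06) and -0.39 (adjusted p = 1.81e-06), and was 0.10 and -0.02 less the median with median centring. With Si306, COL3A1, the chain of type III collagen, was the highest, at 1.23 (adjusted p = 6.84e-09) and 1.08 (adjusted p = 2.70e-08). THBS1 (thrombospondin) was the lowest at 2 Gy, at -0.43 (adjusted p = 8.51e-07; -0.01 less the median with median centring), and EGFR, which decorin also binds, at 10 Gy, at -0.48 (adjusted p = 4.24e-07). COL1A1, COL3A1 and COL1A2 are also among the stromal markers, of which 5 of 9 rose and 3 fell in Si306 + 2 Gy (88.9%, against 66.6% of all genes), and COL3A1 in cells given protons alone was 3.36 and 3.49 higher on the second slide.

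Among 10 enzymes that modify chondroitin and dermatan sulfate, the chains that decorin and biglycan carry, 5 rose and 3 fell in 2 Gy, 6 rose and 3 fell in 10 Gy, 3 rose and 3 fell in Si306 + 2 Gy, and 3 rose and 2 fell in Si306 + 10 Gy. These are 80%, 90%, 60% and 50% of the list, against 57.2%, 57.6%, 66.6% and 62.5% of all genes. DSE, the epimerase that makes dermatan sulfate, had the highest ratio in all 4, at 0.57 (adjusted p = 2.52e-07), 0.32 (adjusted p = 1.38e-05), 0.43 (adjusted p = 1.31e-06) and 0.57 (adjusted p = 2.36e-07). CHST15, a chondroitin sulfotransferase, was the lowest with Si306, at -1.35 (adjusted p = 1.21e-09) and -1.15 (adjusted p = 5.82e-09), and UST, another sulfotransferase, the lowest after protons, at -0.41 on 1 array (adjusted p = 7.22e-05) and -0.58 (adjusted p = 4.69e-07). The values of DSE and of CHST15 with Si306 kept their sides with median centring. The separate-channel model turned the sign of the values given here and above for HAS1, COL1A1, MET, FN1, THBS1, DSE and CHST15, less the median, and not of those for HYAL3, HMMR, COL3A1, EGFR and UST.

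**Figure D5:**
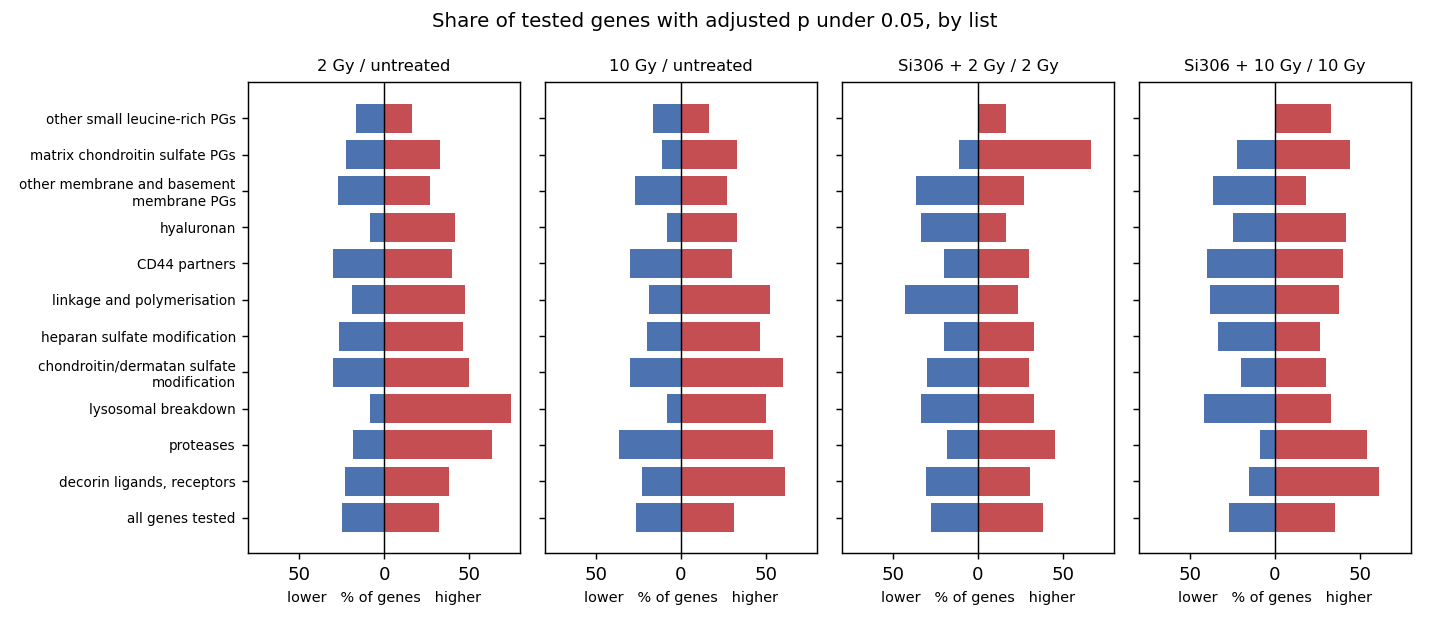
Percent of the tested genes of each list that were higher (red, to the right) or lower (blue, to the left) at an adjusted p under 0.05, in the 4 configurations, with all tested genes in the bottom row (PGs, proteoglycans). Lists hold 6 to 21 tested genes and share some of them. For lysosomal breakdown in 2 Gy the bars stand for 9 and 1 of 12 genes.

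The genes whose log2 ratios were most like those of DCN were found by the root mean square difference over the 7 arrays on which DCN was measured, among 21624 genes with a value on all 7. KIAA1922 was the farthest of the nearest 5, at a root mean square difference of 0.287, with means of 0.27, 0.35, 0.73 and 1.43 in 2 Gy, 10 Gy, Si306 + 2 Gy and Si306 + 10 Gy. The nearest, at 0.253, is listed by a transcript identifier and described in the array's annotation as MKL/myocardin-like 2. A further 2, at 0.257 and 0.271, carry no gene name. The likeness rests mainly on the arrays of Si306 + 10 Gy, where the means of these 4 were 1.36 or more, and no other member was among the nearest 5.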

How the data were processed

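The deposited scanner tables hold, for 45015 spots a scan, Cy3 and Cy5 mean intensity and median local background, and a log10 ratio of Cy5 to Cy3 that the authors' scanner software (Agilent Feature Extraction 9.5.3.1, per the file headers) had background-subtracted and dye-normalized. The authors' series matrix holds the same log10 ratio, rounded. The deposited values that are of other kinds (flags, spot identifiers) were used only for filters and names. The headers name 8 arrays on 2 slides, each scanned 3 times. 22 of 24 scans were used, as 2 carry a label that disagrees with their array.

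From the intensities, control spots and spots marked as outliers (2.98% to 5.73% of a scan) were left out, background was corrected with normexp (offset 50), and log2 ratios were normalized by loess within each scan. Spots of 1 probe and then scans of 1 array were averaged. Probes well above background in either channel on 2/3 of the arrays of at least 1 configuration were kept (30299 of 41000), and the brightest probe stood for its gene (22834 of 30982 names). limma 3.58.1 (R 4.3.3, statmod 1.5.0 and data.table, version 1.17.8) was fitted to the 8 array means (4 residual and 6.58 prior degrees of freedom, prior SD 0.0537) and was tested on simulated data. The number of arrays limits the precision, and at most 0.0115% of spots were saturated. The settings tried in place of these were the scanner software's and the series matrix's ratios, median centring, no background subtraction, no filter, the mean of all probes, a GC curve, a separate-channel model, each array left out, and all scans with the array as a random block or with a replicate block.

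The members, the lists and the rule for named genes (every member and probe, the highest and lowest called gene of up to 3 lists, and the 5 genes nearest to DCN) were chosen with earlier results of these data known. Of the 5 genes nearest to DCN, 1 is not reported here. Sequences and positions are those of the array's annotation (hg17, NCBI35). No protein sequence was used here.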

Additional observations from a re-analysis of the deposited data

Results flagged for a closer look

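For 4 of the 9 tested genes the effect of protons differed between the doses by a test of the difference itself. LUM was 0.30 higher at 10 Gy than at 2 Gy on the log2 scale, and SDC1 (brighter probe) 0.27 higher. SDC4 (brighter probe) differed by -0.20 and CD44 by -0.14. Each difference exceeded the distance between the arrays of either dose, although for SDC1 the 2 Gy arrays lay on either side of 0, at -0.17 and 0.08. The calls were not steady. In the fit over probes the difference of CD44 did not pass (adjusted p = 0.0543), as in each of the 8 fits that left out 1 array, nor did that of the dimmer SDC1 probe (adjusted p = 0.0763) or the dimmer SDC4 probe (adjusted p = 0.231). With the scanner software's ratios SDC4 was the only one of the 4 to pass, and with all scans as labelled and the array as a random block none did. Both doses were read against the same untreated cells.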

How the results depend on the processing

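Of 683 values of the members under other settings, 574 kept their direction and side of the threshold, 46 lost the call, 8 gained it and 55 changed sign, 36 of these outside the separate-channel model. Part of the 574 was fixed in advance. Leaving out an array of another configuration cannot move a ratio, and the mean of all probes is the same value for a gene with 1 probe. The series matrix's ratios are those of the scanner software, rounded. The tally is therefore no measure of steadiness. DCN kept its direction in every setting run. In Si306 + 10 Gy it was 2.03 with the scanner software's or the series matrix's ratios, 1.76 with the GC curve and 2.88 with the separate-channel model. With median centring it was 2.29, not less the median of all genes, which was 0.26 there. Median centring raised the members called in 2 Gy from 5 to 8 and the probes from 6 to 10. It raised the pathway genes called in Si306 + 2 Gy from 77 to 121. The calls over all genes rose with it as well, from 13051 to 19477 of 22818 in 2 Gy and from 15185 to 20465 of 22810 in Si306 + 2 Gy. Median centring leaves in the trend of ratio with brightness that loess removes. The separate-channel model also called 8 members in 2 Gy, and 18611 of 22806 genes. Members that differ between the doses numbered 4, but 2 with the scanner software's or the series matrix's ratios and 0 with all scans as labelled and the array as a random block, where probes (3 before) and pathway genes (31 before) were also at 0; that setting includes the 2 scans that lie on arrays of the other dose. Leaving out 1 array at a time gave 1 to 3 members, 1 to 3 probes and 16 to 29 pathway genes that differ between the doses, the lone array left being assumed to vary like the others. It gave 4 to 5 members in 2 Gy, 5 to 7 in 10 Gy and 6 to 8 in Si306 + 2 Gy.

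Signs changed as follows. With median centring (not less the median of all genes), CD44 was 0.71 in 2 Gy and 0.46 in 10 Gy, SDC2 0.54 and 0.39, HSPG2 -0.17 and -0.21, and SDC1 0.58 in 2 Gy; in Si306 + 2 Gy, SDC1 was 0.65, SDC4 0.42, GPC1 0.31, HSPG2 -0.38 and LUM -0.50, and the dose difference of GPC1 was -0.14. With the separate-channel model, GPC1 was -2.97, LUM -2.05, SDC4 -0.37, GPC4 -0.22, HSPG2 -0.089 and SDC1 1.12 in 2 Gy; GPC1 -2.98, LUM -1.84, SDC4 -0.51, GPC4 -0.23 and HSPG2 -0.11 in 10 Gy; SDC2 -2.35, LUM -2.29, CD44 -1.94, GPC4 -0.10, HSPG2 -0.077 and SDC1 0.65 in Si306 + 2 Gy; and the dose differences of GPC1 and GPC4 were -0.0094 and -0.0051. The mean of all probes put SDC1 at 0.24 in 2 Gy. The scanner software's and the series matrix's ratios put GPC4 in 10 Gy at -0.019, its dose difference at -0.032 and that of SDC2 at 0.011. The GC curve put HSPG2 at -0.066 and -0.13 in 2 Gy and 10 Gy, and no background subtraction put it at -0.0062 in 10 Gy. With local-background-marked spots kept, the dose difference of GPC1 was -0.0036. All scans with the array as a random block put SDC1 in 2 Gy at 0.025, and the dose differences of GPC1 at -0.022 and of HSPG2 at 0.0098. With 1 array left out, GPC4 ran from -0.022 to 0.048 and SDC1 from -0.17 to 0.083 in 2 Gy, HSPG2 from -0.00027 to 0.014 in 10 Gy, and the dose differences of GPC1 from -0.0057 to 0.010 and of GPC4 from -0.0099 to 0.061. The causes were not tested.

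Samples with the same replicate number shared only a number, with correlations of -0.25 to 0.23 over 36 pairs. With the replicate block, which counts scans as samples, 5 members were called in 2 Gy, 7 in 10 Gy, 9 in Si306 + 2 Gy and 5 between the doses, and 5 probes between the doses against 3 without it. There, HSPG2 was -0.012 in 2 Gy and -0.0028 in 10 Gy, and the dose differences of GPC1 and HSPG2 were -0.017 and 0.0096. Signals near background limit BGN, HSPG2 and, on the Si306 arrays, LUM.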
